A study of Mus musculus with 6 samples.

Results

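The genes described here are 10 regulators of fat-cell formation: Pparg, Rxra, Cebpa, Cebpb, Cebpd, Zfp423, Ebf2, Klf15, Klf4 and Ppargc1a. They were chosen by symbol from the 20071 genes of a table of read counts, and all 10 passed the filter on low counts that left 13733 genes to test. RNA-seq was run on mesenchymal stem cells (MSCs), stromal cells of the marrow that can form bone or fat, taken from femurs of 6-week-old C57BL/6J mice and kept for 7 days in osteogenic medium. Both genotypes had the same medium, with dexamethasone at 100 nM, β-glycerophosphate at 5 mM and ascorbic acid at 50 μg/mL. Control cells were Pcif1fl/fl (labelled WT), and the compared cells were Prrx1-Cre;Pcif1fl/fl (labelled CKO), with 3 libraries of each. Both groups carry the floxed allele of Pcif1, which encodes the enzyme that writes m6Am on a capped mRNA whose first base is adenosine. Only the CKO cells carry Prrx1-Cre, a recombinase active in limb mesenchyme and not in blood-derived cells. No source used here gives the sex of the mice, or says whether animals were pooled. The labels give 3 libraries per genotype, while the design text speaks of duplicates, so that p-values measure the spread between these libraries.

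Fat cells form through a cascade of transcription factors. Cebpb and Cebpd are induced first by hormones and glucocorticoids such as dexamethasone, and they switch on Pparg and Cebpa, which sustain each other and drive the genes of the mature adipocyte. PPARG binds DNA as a pair with RXRA, the zinc-finger protein Zfp423 and the factor Ebf2 mark committed preadipocytes, Klf4 and Klf15 act before and during the induction of Pparg, and Ppargc1a encodes the coactivator PGC-1α. In marrow, the same stromal cells can give rise to adipocytes and osteoblasts.

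Library totals lay between 20258209 and 28227696 counts. WT replicate 3 stood apart: 3.63% of its counts came from mitochondrial genes against 1.40% to 1.57% in the other 5 libraries, and the chi-square per gene of its counts against those of the other WT libraries was 82.9 and 98.6, where the remaining pairs within a genotype had 2.83 to 10.1. The fold changes of the 10 genes and the counts of called genes on each related list are therefore also given without WT replicate 3. Pcif1 itself was at 39.3 to 42.8 CPM (counts scaled to a common library size with edgeR's TMM factors) in WT and 37.8 to 39.7 CPM in CKO, and counts over the whole gene do not show whether the floxed exons were removed. Xist, the RNA of the inactive X chromosome, was at 232 to 443 CPM in WT and 0.722 to 1.79 CPM in CKO. Each CKO library held more Ddx3y, Eif2s3y, Uty and Kdm5d, which lie on the Y chromosome, than each WT library. These Y-linked genes were present in WT too, with Ddx3y at 48.4 to 62.2 CPM in WT and 99.1 to 104 CPM in CKO. Uty was at 20.5 to 30.4 CPM in WT and 30.8 to 34.5 CPM in CKO. Each WT library thus held Xist and Y-linked RNA together. The sex make-up of the cells and the genotype cannot be told apart in these samples. A WT library with both kinds of RNA cannot be taken as a single mouse, so p-values cannot be read as the spread between single mice.

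In CKO cells, 3 of the 10 genes were lower than in WT and 0 were higher, at an adjusted p under 0.05 (edgeR quasi-likelihood, Benjamini-Hochberg over all genes). Zfp423 was 4.92-fold lower, Pparg 2.97-fold lower and Klf15 1.59-fold lower. Over all 13733 genes, 7.4% were called, with 4.51% lower and 2.88% higher. Zfp423 and Pparg also passed a 2-fold limit, which 3.53% of all genes passed, 2.5% on the lower and 1.03% on the higher side. At an unadjusted p under 0.05, the 3 lower genes were joined by 1 higher gene, Klf4, which DESeq2 called with an adjusted p of 0.0435. Of all genes, 21.4% had an unadjusted p under 0.05, and DESeq2 called 9.01%. Bulk counts cannot tell fewer cells of a type from less RNA per cell. The median log2 fold change of the 10 genes was -0.20, and that of all genes was 0.0017. These medians were -0.37 and 0.00089 without WT replicate 3. The plot of levels by library shows all 10 genes with the 6 libraries.

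**Figure D1:**
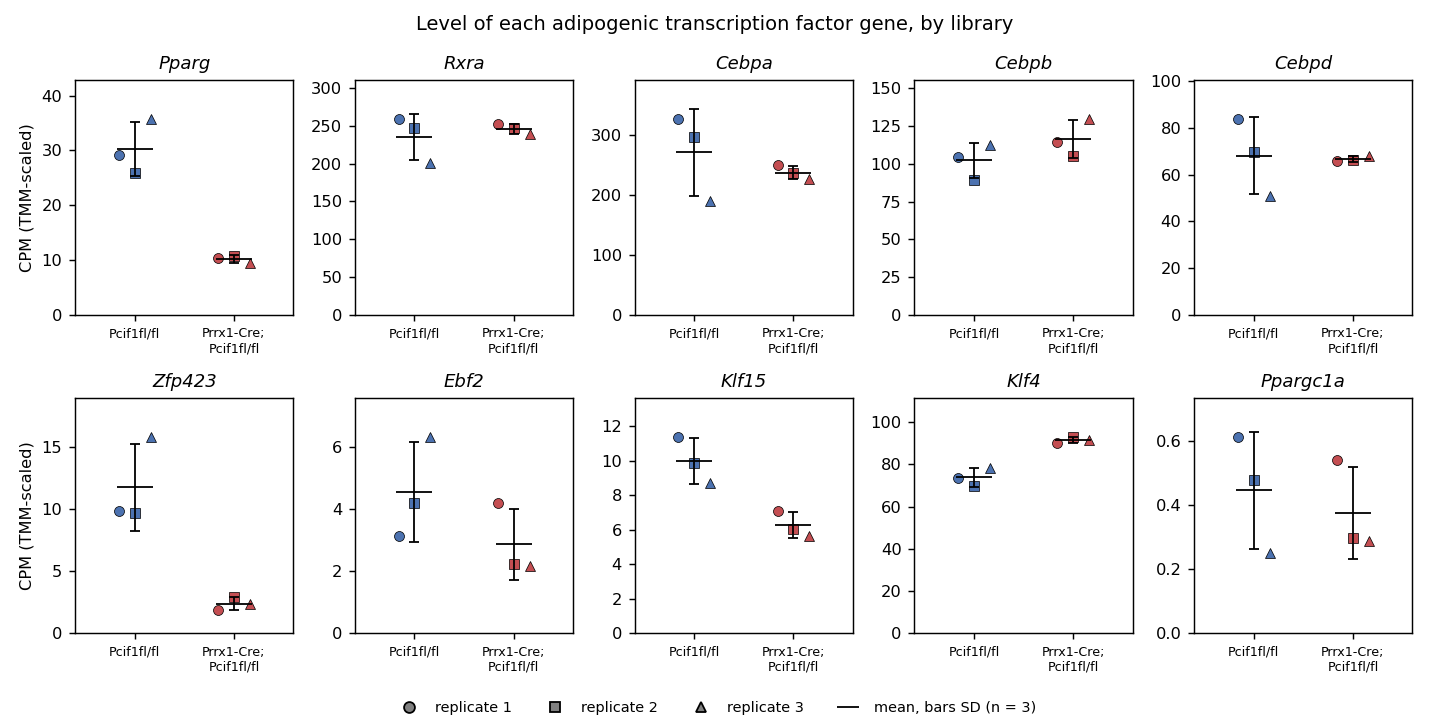
Level of each of the 10 adipogenic genes in CPM (y axis, linear, from 0, a scale of its own in each panel) in the 3 Pcif1fl/fl and 3 Prrx1-Cre;Pcif1fl/fl libraries, with symbols for the replicate numbers, a line at the mean and bars for the SD. Pparg, Zfp423 and Klf15 lie lower in each CKO library than in each WT library, Klf4 lies higher in each CKO library, and the other 6 genes overlap between genotypes.

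Pparg encodes the nuclear receptor without which adipocytes do not form. The gene (ENSMUSG00000000440) lies on the plus strand of chromosome 6 from 115360951 to 115490399 (GRCm38, the build also called mm10). Pparg was at 29.1, 25.9 and 35.7 CPM in WT replicates 1 to 3 and 10.4, 10.8 and 9.43 CPM in CKO replicates 1 to 3. Every CKO library was below every WT library, and the CKO libraries lay close together. The mean was 30.3 ± 5.00 CPM (SD, n = 3) in WT and 10.2 ± 0.705 CPM (SD, n = 3) in CKO. The log2 fold change of Pparg was -1.57 (SE 0.148, adjusted p = 0.000557). Without WT replicate 3, the library with the most Pparg, it was -1.43 (adjusted p = 1.28e-07). It remained called in 16 of 16 alternative settings, with log2 fold changes from -1.67 to -1.41.

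Pparg has 3 annotated starts in RefSeq (GRCm38.p6), and gene counts do not show which were in use or at which exact base transcription began. The bases up to each start are printed with the annotated first base in capitals. m6Am can be written only where the first transcribed base is A.
Pparg start 1, chr6:115361115-115361144, plus strand: caggtcagagtcgccccgggccacgcggcC
Pparg start 2, chr6:115362320-115362349, plus strand: tttatataagggacgcgaggaggtcaagaA
Pparg start 3, chr6:115422037-115422066, plus strand: taaccaaccaatcttttgcaagacatagaC
Start 2 alone of the 3 opens with A.

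Zfp423 encodes a zinc-finger factor that raises Pparg in cells committed to fat. The gene (ENSMUSG00000045333) lies on the minus strand of chromosome 8 from 87661810 to 87959595. Zfp423 was at 9.83, 9.67 and 15.8 CPM in WT replicates 1 to 3 and 1.89, 2.94 and 2.36 CPM in CKO replicates 1 to 3. The groups were far apart, and WT replicate 3 was well above the other WT libraries. The CPM values rest on 225 to 440 counts in WT and 42 to 59 counts in CKO. The log2 fold change of Zfp423 was -2.30 (SE 0.26, adjusted p = 0.0013), and without WT replicate 3 it was -2.03 (adjusted p = 1.34e-06). Like Pparg, Zfp423 remained called in 16 of 16 alternative settings, where its log2 fold change ran from -2.47 to -2.03. Both of its RefSeq starts open with another base than A.
Zfp423 start 1, chr8:87959595-87959624, minus strand: cggggggtggggaagaggaggggggcggcT
Zfp423 start 2, chr8:87804439-87804468, minus strand: acccgtgggccagtgggaagtgcctgtctC

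Klf15 encodes a Krüppel-like factor that is induced by glucocorticoids and acts late in fat-cell formation. The gene (ENSMUSG00000030087) lies on the plus strand of chromosome 6 from 90462576 to 90475238. Klf15 was at 11.4, 9.89 and 8.71 CPM in WT replicates 1 to 3 and 7.11, 6.07 and 5.63 CPM in CKO replicates 1 to 3. The groups did not overlap, but the lowest WT library was near the highest CKO library. The log2 fold change of Klf15 was -0.67 (SE 0.163, adjusted p = 0.0446). The call was lost without WT replicate 1 (adjusted p = 0.115) or 2 (0.12) and without CKO replicate 1 (0.0957), 2 (0.165) or 3 (0.196). With all 6 libraries it was also lost in limma-voom (0.0545) and with the replicate number as a block (0.0542), so that Klf15 was called in 9 of 16 alternative settings. Without WT replicate 3, the log2 fold change was -0.75 (adjusted p = 0.00184). Its single RefSeq start opens with G.
Klf15 start, chr6:90462547-90462576, plus strand: gcgagccttcgcggcgcccgcggcgtcacG

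The table of RefSeq starts used here held 12 starts for 8 of the 10 genes, without Cebpd and Ebf2. The annotated first base was A at 3 of the 12 starts (25%), namely Pparg start 2, Cebpa and Klf4, and at 34.4% of all 32851 starts in the table. Whether the transcripts of these genes carry m6Am was not tested.

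Windows from 250 bases before to 50 bases after each start were searched on both strands for the C/EBP motif TTGCNNAA, since C/EBP factors are known to act on Pparg. Pparg start 3 and Zfp423 start 1 held it, with 2 matches each, which is 2 of 12 windows against 10.8% of all windows. The matches before the starts are printed with the motif in capitals.
Pparg start 3, 215 bases before, chr6:115421840-115421869, plus strand: tgtaccaagtcTTGCCAAAgcagcagacag
Pparg start 3, 16 bases before, chr6:115422036-115422065, plus strand: ttaaccaaccaatcTTTTGCAAgacataga
Zfp423 start 1, 131 bases before, chr8:87959708-87959737, minus strand: gcctgcaaactTTGCACAAaaatccggcaa
The E-box CACGTG was found before the starts of Klf15 and Klf4 and in 7.15% of all windows, and TATAAA was found at Pparg start 2, Cebpa and Cebpb and in 13.6% of all windows. The PPAR-RXR motif (AGGTCA repeated after 1 base), the EBF motif (TCCC and GGGA with 2 bases between) and the glucocorticoid receptor motif (GNACA and TGTNC with 3 bases between) were found in 0 of the 12 windows and in 0.0396%, 0.904% and 0.475% of all windows. A match describes the letters and is not a site of binding.

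Rxra and Cebpa, the partners of Pparg in the core of the cascade, had smaller fold changes that were not called. Rxra (ENSMUSG00000015846, chromosome 2, 27676440 to 27762957, plus strand) was at 259, 246 and 201 CPM in WT and 252, 247 and 239 CPM in CKO. The CKO libraries fell inside the WT range, and the log2 fold change was 0.064 (SE 0.11, adjusted p = 0.778), or -0.035 (adjusted p = 0.737) without WT replicate 3. Cebpa (ENSMUSG00000034957, chromosome 7, 35119293 to 35121928, plus strand), which encodes the factor that sustains Pparg in mature adipocytes, was at 327, 296 and 190 CPM in WT replicates 1 to 3. In CKO replicates 1 to 3 it was at 249, 236 and 227 CPM. WT replicates 1 and 2 were above all CKO libraries, and WT replicate 3 was below them. The log2 fold change of Cebpa was -0.19 (SE 0.182, adjusted p = 0.595) over all 6 libraries. It was -0.39 (SE 0.0666, adjusted p = 0.000575) without WT replicate 3, so that 1 library decided the call.

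The early factors Cebpb and Cebpd were not called either. Cebpb (ENSMUSG00000056501, chromosome 2, 167688915 to 167690418, plus strand) was at 105, 89.6 and 112 CPM in WT and 114, 105 and 129.8 CPM in CKO. The groups overlapped, with a log2 fold change of 0.19 (SE 0.119, adjusted p = 0.419), and without WT replicate 3 the value was 0.27 (adjusted p = 0.049). Cebpd (ENSMUSG00000071637, chromosome 16, 15887286 to 15891031, plus strand) was at 83.8, 69.5 and 51.0 CPM in WT and 65.9, 66.2 and 68.0 CPM in CKO. The CKO libraries were nearly alike and lay within the wide WT range, and the log2 fold change of Cebpd was -0.029 (SE 0.164, adjusted p = 0.939), or -0.20 (adjusted p = 0.0951) without WT replicate 3. Antisense genes share part of the exonic sequence of these genes, Tmem189 with 20.7% of Cebpb and Spidr with 15.0% of Cebpd, and smaller parts of Ebf2 (6.12%, Gm10860) and Cebpa (1.93%, Gm45091). The use of strand in counting is not given in the sources used here, so reads in those stretches cannot be assigned to one gene.

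Klf4 encodes a Krüppel-like factor that acts early, upstream of Cebpb. The gene (ENSMUSG00000003032) lies on the minus strand of chromosome 4 from 55527143 to 55532466. Klf4 was at 73.3, 69.8 and 78.5 CPM in WT and 90.3, 92.8 and 91.4 CPM in CKO. All CKO libraries were above all WT libraries, the only gene of the 10 with that pattern. The log2 fold change was 0.31 (SE 0.0867, adjusted p = 0.0723), and without WT replicate 3 it was 0.36 (adjusted p = 0.00123). In all, the groups did not overlap for 4 of the 10 genes, 3 below and 1 above, beside 30.8% of all genes.

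Ebf2 and Ppargc1a had the lowest levels per length of the 10 genes. Ebf2 (ENSMUSG00000022053, chromosome 14, 67233292 to 67430918, plus strand), a factor of brown and beige fat precursors, was at 3.14, 4.19 and 6.31 CPM in WT and 4.19, 2.24 and 2.16 CPM in CKO. The level of CKO replicate 1 was that of WT replicate 2, and the log2 fold change was -0.67 (SE 0.338, adjusted p = 0.307). It was -0.35 (adjusted p = 0.42) without WT replicate 3, the highest library, and -1.04 (adjusted p = 0.188) without CKO replicate 1. The values of Ebf2 rest on 72 to 176 counts in WT and 45 to 93 counts in CKO. Ppargc1a (ENSMUSG00000029167, chromosome 5, 51454250 to 51567726, minus strand) was at 0.611, 0.478 and 0.251 CPM in WT and 0.54, 0.299 and 0.289 CPM in CKO. These values rest on 7 to 14 counts per library in WT and 6 to 12 in CKO. A difference in Ppargc1a was not detectable at this depth (log2 fold change -0.21, SE 0.483, adjusted p = 0.838, or -0.50 and adjusted p = 0.547 without WT replicate 3).

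WT replicate 3 was the highest WT library for 5 of the 10 genes (Pparg, Cebpb, Zfp423, Ebf2 and Klf4) and the lowest for the other 5. Over all genes it was the highest in 42.7% and the lowest in 42.7%. The median distance of WT replicate 3 from the mean of the other WT libraries was 0.48 on the log2 scale for the 10 genes and 0.315 for all genes. Without it, 6 of the 10 genes were called, beside 21.5% of the 13905 genes then tested (10.4% lower and 11.1% higher). Pparg, Zfp423, Klf15 and Cebpa were lower, and Cebpb and Klf4 were higher. The log2 fold changes with and without this library are set side by side in the plot of genotype differences.

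**Figure D2:**
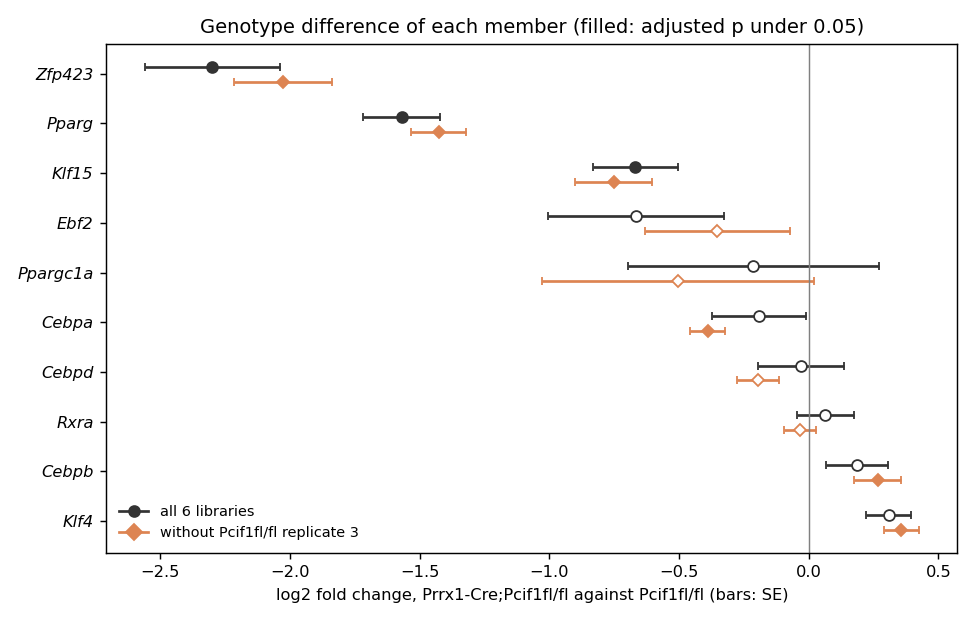
Log2 fold change of CKO against WT (x axis) for each of the 10 genes (y axis), with bars for the SE, over all 6 libraries (circles) and without WT replicate 3 (diamonds), filled where the adjusted p was under 0.05. Zfp423 and Pparg lie farthest from 0 in both, and Cebpa, Cebpb and Klf4 turn from open to filled without WT replicate 3.

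Levels were compared between genes per kilobase of exon. Cebpa had the highest mean, 103 CPM per kb in WT and 90.0 in CKO, followed by Cebpb with 68.0 and 77.4, Rxra with 43.1 and 45.1, Klf4 with 24.2 and 30.003, and Cebpd with 18.2 and 17.8. Pparg came next with 10.3 CPM per kb in WT and 3.46 in CKO. Klf15 had 3.58 and 2.25, Zfp423 2.10 and 0.427, Ebf2 0.657 and 0.413, and Ppargc1a 0.0678 and 0.0570 CPM per kb. The order was the same in both genotypes. Among neighbours in that order, the ranges over 3 libraries overlapped for Cebpa and Cebpb in both genotypes, and in CKO also for Zfp423 (0.337 to 0.524 CPM per kb) and Ebf2 (0.312 to 0.604 CPM per kb). The level of Cebpa was 10.03 times that of Pparg in WT cells and 26.04 times in CKO cells.

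**Figure D3:**
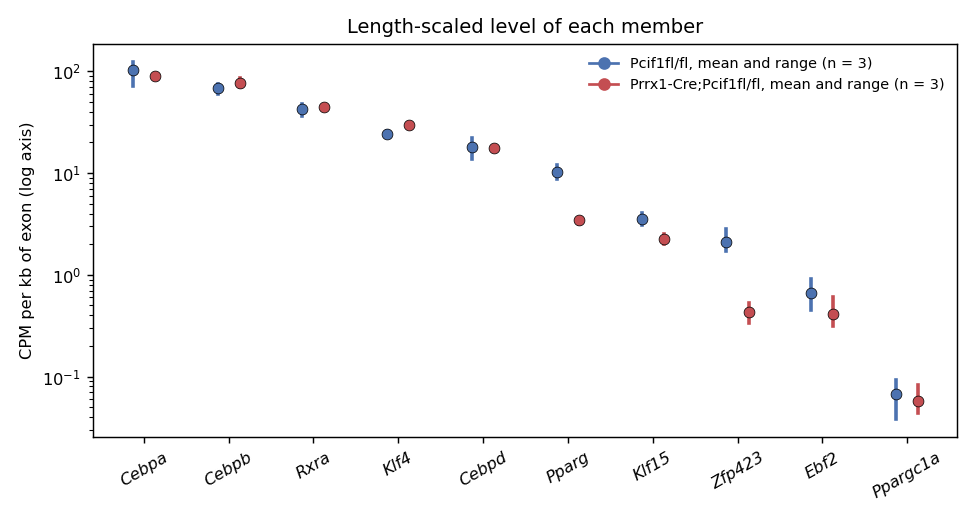
Mean level of each gene in CPM per kilobase of exon (y axis, log scale), ordered by the WT mean, with lines from the lowest to the highest of 3 libraries. The genotypes lie close for Cebpa, Cebpb, Rxra and Cebpd, and apart for Pparg and Zfp423.

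Many adipocyte genes, most of them known targets of PPARG, were lower in CKO. Of 31 genes on the list, 26 were tested, 14 were lower and 0 higher, so that 53.8% were called beside 7.4% of all genes, and 12 of the lower ones passed the 2-fold limit. DESeq2 called 15 lower and 1 higher, beside 9.01% of all genes. At an unadjusted p under 0.05, 16 were lower and 2 higher, beside 21.4% of all genes. Leaving out 1 library moved the count of lower genes, to 9 without CKO replicate 2, to 10 without any 1 of WT replicates 1 and 2 and CKO replicates 1 and 3, and to 17, with 4 higher, without WT replicate 3 (80.8% called, beside 21.5% of all genes in that fit, with a median of -0.79). The share of all genes called was 3.38% to 5.59% with any other library left out. The genes that lost their call in some of these fits were Pnpla2, Acsl1, Aqp7, Car3 and Acacb, named for this reason after their values had been seen. The list's median log2 fold change was -0.75, against 0.0017 over all genes. The summed level of its genes was 2730 to 2804 CPM in WT and 2398 to 2745 CPM in CKO, ranges that overlap. Adipoq, the adipocyte hormone adiponectin, was at 53.8, 42.9 and 44.3 CPM in WT and 1.49, 0.697 and 0.289 CPM in CKO (log2 fold change -5.80, adjusted p = 0.000111). No CKO library came near a WT library. Plin1, which coats the lipid droplet, was at 2.17 to 4.12 CPM in WT and had 0 counts in the 3 CKO libraries, at least 21.7-fold lower against a floor of 3 counts per library. Cfd, the secreted protease adipsin, was at 1.18 to 1.95 CPM in WT and also had 0 counts in CKO, at least 10.9-fold lower. Cidec, another lipid-droplet gene, had 117 counts in WT and 1 in CKO, a ratio per library size of 94.6 with a 95% counting interval from 16.7 to 3770. For counts this low, intervals and floors cover counting error only.

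Aoc3, Plin4, Scd1 and Slc2a4, from the same list, were also lower. The amine oxidase gene Aoc3 went from 24.7 ± 3.18 to 4.12 ± 0.812 CPM (SD, n = 3, log2 fold change -2.58), Plin4 from 30.9 ± 4.10 to 8.25 ± 0.961 CPM (-1.90), and the desaturase gene Scd1 from 435.7 ± 95.4 to 159 ± 10.9 CPM (-1.45). Slc2a4, the insulin-responsive glucose transporter, was low in both, with 1.51 ± 0.0943 CPM in WT and 0.159 ± 0.112 CPM in CKO (-3.21). These 4 genes, Adipoq, Plin1, Cfd and Cidec remained called with each library left out in turn.

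Other well-known adipocyte genes were not called. Fabp4, a fatty-acid-binding protein used as an adipocyte marker, was at 70.6, 78.8 and 66.3 CPM in WT and 103, 85.3 and 107 CPM in CKO (log2 fold change 0.46, adjusted p = 0.0545). Every CKO library had more Fabp4 than every WT library, and without WT replicate 3 the value was 0.40 (adjusted p = 0.006). The lipase gene Lpl had a log2 fold change of 0.23 (adjusted p = 0.486), which was 0.37 (adjusted p = 0.0383) without WT replicate 3. The fatty-acid receptor gene Cd36 was at 482 ± 72.4 CPM in WT and 482 ± 27.2 CPM in CKO. Macrophages are known to express Fabp4, Lpl and Cd36 as well, and the level of macrophage markers is given below.

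**Figure D4:**
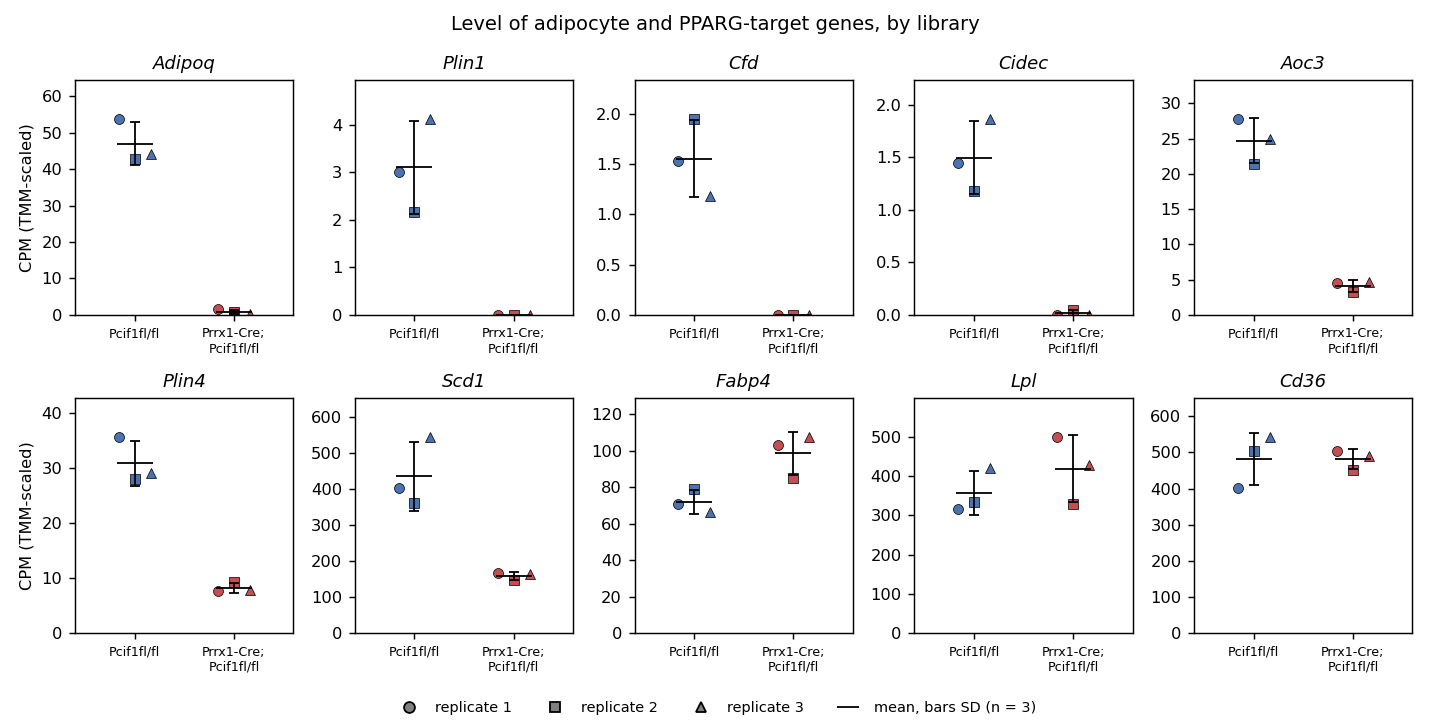
Level of 10 adipocyte genes in CPM (y axis, linear, from 0, a scale of its own in each panel) in the 3 WT and 3 CKO libraries, with a line at the mean and bars for the SD. Adipoq, Plin1, Cfd and Cidec are near or at 0 in CKO, Aoc3, Plin4 and Scd1 are lower without reaching 0, and Fabp4, Lpl and Cd36 are not lower.

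Among 20 other transcription factors that promote fat-cell formation, 3 were lower and 3 higher (30% called, beside 7.4% of all genes), with a median log2 fold change of -0.14. Without WT replicate 3, the counts were 7 lower and 3 higher (50% called, beside 21.5% of all genes in that fit) and the median was -0.19, and without CKO replicate 1, 2 or 3, 1 was lower and 1 or 2 were higher. Without WT replicate 1, 2 were lower and 2 higher, and without WT replicate 2, 3 were lower and 1 higher. DESeq2 called 6 lower and 3 higher, beside 9.01% of all genes, and at an unadjusted p under 0.05 there were 9 lower and 4 higher, beside 21.4%. The Ebf2 paralogs Ebf3 and Ebf1 were lower, Ebf3 from 77.1 ± 17.9 to 16.004 ± 0.643 CPM (SD, n = 3, log2 fold change -2.27, adjusted p = 0.000177) and Ebf1 from 84.1 ± 31.7 to 33.7 ± 2.08 CPM (-1.32, adjusted p = 0.0113). Ebf1 lost its call without CKO replicate 1, 2 or 3, with adjusted p up to 0.0713. Nr1h3, the sterol-sensing receptor LXRα, had a log2 fold change of -0.53 (adjusted p = 0.0191) that was called in 1 of 6 fits with a library left out, that without WT replicate 3. Egr2, an early inducer of adipogenesis, was higher in CKO at 10.4 ± 2.50 CPM against 2.68 ± 0.193 CPM in WT (log2 fold change 1.96, adjusted p = 0.00111). The chromatin protein gene Hmga2 was higher by 1.09 (adjusted p = 0.016), a call lost without WT replicate 2 or CKO replicate 2 or 3. Klf6 was higher by 0.42 (adjusted p = 0.0304), a call that held only without WT replicate 3 among the fits with a library left out. The glucocorticoid receptor gene Nr3c1 had a log2 fold change of 0.055 (adjusted p = 0.778).

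Of 22 genes that restrain fat-cell formation, 18 were tested, 3 were lower and 1 was higher (22.2% called, beside 7.4% of all genes), with a median log2 fold change of -0.10. Without WT replicate 3, 3 were lower and 2 higher (27.8% called, beside 21.5% of all genes in that fit), and the median changed sign to 0.036. The counts were 2 lower and 2 higher without CKO replicate 2, and 2 lower and 1 higher without CKO replicate 3. Gli2, a transcription factor of Hedgehog signalling, had a log2 fold change of -2.43 (8.28 ± 1.78 to 1.53 ± 0.231 CPM, adjusted p = 0.000558). Tcf7l1, a repressor in Wnt signalling, had -1.19 (adjusted p = 0.0085), a call lost without CKO replicate 2 or 3, and the homeobox gene Irx3 had -0.90 (adjusted p = 0.00373). Ddit3, the stress factor CHOP that blocks C/EBP proteins, was higher by 0.76 (20.4 ± 0.983 CPM in CKO against 12.02 ± 0.806 CPM in WT, adjusted p = 0.00581), although 10.9% of its exonic sequence is shared with other genes. Zfp521, the paralog of Zfp423 that opposes it, had a log2 fold change of -0.54 (adjusted p = 0.115) with all CKO libraries below all WT libraries. The preadipocyte gene Dlk1 was too low to test, at 0 to 0.175 CPM.

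Cofactors of these regulators were called in a share near that of all genes. Of 21 coactivators and corepressors, 1 was lower and 0 were higher by edgeR (4.76% called, beside 7.4% of all genes), with a median log2 fold change of -0.21. DESeq2 also called 1 lower and 0 higher, beside 9.01% of all genes. At an unadjusted p under 0.05, 4 were lower and 0 higher, beside 21.4% of all genes. Without WT replicate 3, 3 were called lower and 1 higher (19% called, beside 21.5% of all genes in that fit), and the median was -0.026. The lower one was Prdm16, which directs cells to brown fat, with 7.79 ± 0.897 CPM in WT and 4.36 ± 0.22 CPM in CKO (log2 fold change -0.84, adjusted p = 0.0141), and its call was lost without CKO replicate 1, 2 or 3. Prdm16 was also the 1 gene called among 13 tested of 22 thermogenic genes and partners of PGC-1α, a share of 7.69% beside 7.4% of all genes, with a median log2 fold change of -0.011. On that list, 1 gene was lower and 1 higher without WT replicate 3 (15.4% called, beside 21.5% of all genes in that fit), and the median was -0.062. Ucp1, the uncoupling protein of brown fat, was too low to test, at 0 to 0.108 CPM.

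Of 27 paralogs of the 10 genes, 22 were tested. Ebf3 and Ebf1 were lower and Klf6 higher (13.6% called, beside 7.4% of all genes), and the median log2 fold change was 0.0012. With WT replicate 3 left out, 3 were lower and 1 higher (18.2% called, beside 21.5% of all genes in that fit), and the median was 0.031. The counts were 1 lower and 0 higher without CKO replicate 1, 2 or 3, and 2 lower and 0 higher without WT replicate 1 or 2, where Klf6 lost its call.

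Since dexamethasone was in the medium of both genotypes, 21 genes that respond to glucocorticoids were examined. Of these, 2 were lower and 2 higher (19% called, beside 7.4% of all genes), with a median log2 fold change of -0.049. Without WT replicate 3, 7 were lower and 4 higher (52.4% called, beside 21.5% of all genes in that fit), and the median changed sign to 0.037. Without WT replicate 1 or 2 or CKO replicate 1 or 3, 1 was lower and 2 were higher, and without CKO replicate 2, 2 were lower and 1 higher. Sgk1, a glucocorticoid-induced kinase, was higher by 0.66 (adjusted p = 0.00268) and the metallothionein gene Mt1 by 0.86 (adjusted p = 0.0104). Angptl4, a lipase inhibitor that is also a PPARG target, had a log2 fold change of -1.11 (adjusted p = 0.00712), and the glutamine synthetase gene Glul had -0.60 (adjusted p = 0.0231). Mt1 lost its call without CKO replicate 2, and Glul lost it without WT replicate 1 or 2 and without CKO replicate 1 or 3. The classical targets Tsc22d3 and Fkbp5 had log2 fold changes of -0.049 (adjusted p = 0.875) and 0.20 (adjusted p = 0.524). Over the 7 lists, 28 of 123 tested genes were called, beside 7.4% of all genes. Of the 28, 15 were called with each library left out in turn, and 0 lost their call without WT replicate 3. The plot of log2 fold changes by list sets the 10 genes beside these lists.

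**Figure D5:**
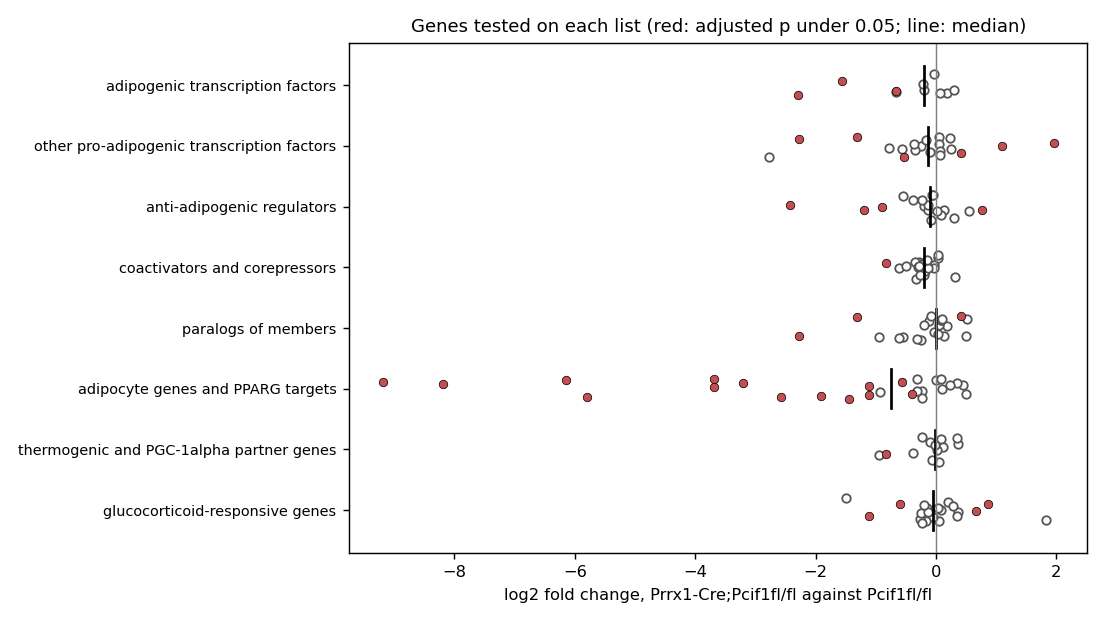
Log2 fold change of CKO against WT (x axis) for every tested gene of the 10 adipogenic regulators and of 7 related lists (rows), red where the adjusted p was under 0.05, with a line at the median of each list. The adipocyte genes reach farthest to the left, where the values of Plin1 and Cfd are fitted values for genes with 0 CKO counts, and the other medians lie between -0.21 and 0.0012.

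The cultures held RNA of several cell types. The summed level of 15 macrophage markers was 34621 to 37421 CPM in WT and 34734 to 37958 CPM in CKO. That of 10 mesenchymal markers was 5164 to 6533 CPM in WT and 8544 to 8792 CPM in CKO. The macrophage gene Lyz2 alone took 2.18% to 2.59% of all counts, so the cultures labelled MSCs also held macrophage RNA. Macrophages also express Cebpa, Cebpb, Klf4 and Pparg, and their part in the levels above was not tested. Of the 15 macrophage markers, 0 were called by edgeR in either direction, beside 7.4% of all genes. At an unadjusted p under 0.05, 1 was lower and 2 were higher, beside 21.4% of all genes. DESeq2 called 2 higher, beside 9.01%. Leaving out WT replicate 3, edgeR called 1 lower and 3 higher (26.7% called, beside 21.5% of all genes in that fit). Of the mesenchymal markers, 2 were lower and 4 higher (60% called, beside 7.4% of all genes), and without WT replicate 3, 3 were lower and 7 higher (beside 21.5%).

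Markers of Cxcl12-abundant reticular cells, the marrow stroma that also gives rise to adipocytes, were lower in CKO as well. Their summed level over 7 genes was 3337 to 3810 CPM in WT and 684 to 795 CPM in CKO, and 6 of 7 were lower, beside 4.51% of all genes, with 7 of 7 lower without WT replicate 3, beside 10.4%. Cxcl12 had a log2 fold change of -2.44 (adjusted p = 5.2e-05), Lepr -2.72 (adjusted p = 0.000131) and Kitl -1.94 (adjusted p = 0.000141). The summed level of 10 osteoblast markers was 14586 to 20717 CPM in WT and 17889 to 26653 CPM in CKO. Of 9 osteoblast markers tested, 3 were lower (Sp7, Ibsp and Alpl) and 1 was higher (Col1a1), which is 44.4% called beside 7.4% of all genes. The counts were 3 lower and 2 higher without WT replicate 3 (55.6% called, beside 21.5%). These marker genes were picked for naming after their values had been seen. Endothelial markers summed to 21.6 to 35.9 CPM in WT and 19.5 to 21.6 CPM in CKO. Of 5 tested, 0 were called by edgeR, beside 7.4% of all genes, and DESeq2 called 1 lower, beside 9.01%. Neutrophil markers summed to 1.00 to 1.14 CPM in WT and 1.44 to 1.98 CPM in CKO, and 1 of 2 tested was higher (50%, beside 7.4% of all genes). The part of any of these cell types in the lower Pparg, Zfp423 and adipocyte genes was not tested.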

How the data were processed

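Poly(A) RNA of 3 WT and 3 CKO MSC cultures was sequenced. The authors deposited counts of reads per gene, not normalized, from reads mapped to mm10 with HISAT2 per the labels. How reads were assigned to genes, and whether strand was used, is not given in the sources used here. Of 20163 rows, 92 repeated an Ensembl ID and were dropped. Groups and replicate numbers came from the sample titles. Counts were fitted by genotype alone with edgeR 4.0.16 under R 4.3.3, using filterByExpr, TMM, glmQLFit and glmQLFTest. The SE was the log2 fold change over the square root of F. Exon lengths and overlaps came from GENCODE M21, and starts from RefSeq on GRCm38.p6.

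The 10 genes, the lists and the tests were chosen with earlier results of these data known. All 10 genes are reported. From each list, up to 8 called genes with the smallest p were named, with preset genes such as Fabp4, Adipoq and Ucp1. Alternatives were DESeq2 1.42.0, voom (limma 3.58.1), other scalings and filters, a replicate block, and leaving out each library. On simulated counts for 13733 genes, edgeR recovered 74% of 100 genes changed by 1 on the log2 scale and 98% of 100 changed by 2, with 13 false calls. DESeq2 recovered 79% and 97% of them, with 38 false calls. The simulation held no library that stood apart as WT replicate 3 did, so these rates may not hold for the real counts. With 3 libraries against 3, an exact permutation test of 1 gene cannot go below p = 0.1 and was not used.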

Additional observations from a re-analysis of the deposited data

How the results depend on the processing

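Over all 6 libraries, 3 of the 10 genes were called lower and 0 higher. The count of higher genes was 1 with DESeq2, 1 at an adjusted p under 0.1, 2 with DESeq2 without WT replicate 3, 2 with library quality weights in voom, and 0 to 2 with each library left out in turn. The count of lower genes was 2 to 4 over all alternatives. On the 7 lists, 22 of 123 tested genes were lower and 6 higher, beside 4.51% and 2.88% of all genes. With each library left out in turn, 13 to 36 were lower and 4 to 15 higher. The highest of these counts were those without WT replicate 3, where 21.5% of all genes were called. The lowest lower counts, 13, 13 and 14, were those without CKO replicate 2, 3 or 1. With any library but WT replicate 3 left out, 3.38% to 5.59% of all genes were called. Library weights gave 40 lower and 19 higher, and DESeq2 without WT replicate 3 gave 32 lower and 14 higher. The 2-fold limit left 16 lower and 2 higher, beside 2.5% and 1.03% of all genes. The fits with library weights and with DESeq2 without WT replicate 3 were chosen after seeing the data. Their shares over all genes are not given here.

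The log2 fold changes of 3 genes turned sign: Cebpd to 0.0036 in voom and 0.15 without WT replicate 1, Ppargc1a to 0.060 without WT replicate 1, and Rxra to -0.035 without WT replicate 3 by edgeR and by DESeq2 and to -0.0056 with library weights. With each library left out in turn, Cebpd ran from -0.20 to 0.15, Rxra from -0.035 to 0.14 and Ppargc1a from -0.57 to 0.060. The cause was not tested. Of the values of single genes under the alternatives, 136 kept direction and side of the threshold, 10 became called (Klf4, Cebpa and Cebpb) and 7 lost their call (Klf15 each time). Levels per kilobase moved by less than the SD under both other scalings, which were chosen after seeing the data.

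Same-numbered libraries had correlations of their deviations from the genotype means of 0.055, -0.045 and -0.013. Since the WT means include WT replicate 3, which stood apart, these values cannot decide whether replicate numbers paired the samples. With the replicate block, 2 of the 10 genes were lower and 0 higher, since Klf15 had an adjusted p of 0.0542, and 18 list genes were lower and 5 higher. Depth limits Ppargc1a, which was not tested under the filter at a mean of 10 counts.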
